A study of Homo sapiens with 4 samples.

Results

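The genes described here are 46 classical identity genes of epithelial and mesenchymal cells, out of 58302 genes listed in the tables. They were picked by name, by a rule that uses no measured value, though with earlier results of these data known: 22 epithelial genes, which encode adhesion, tight junction, desmosome and keratin proteins and factors that keep their genes on, and 24 mesenchymal genes, which encode the factors of the epithelial-mesenchymal transition (EMT) and mesenchymal cytoskeleton, matrix, receptor and matrix-enzyme proteins. RNA was sequenced from MIB1-iKO cells, a derivative of NCI-H838, a line from a human non-small cell lung carcinoma. Both groups were harvested at day 3, and the 2 groups of 2 replicates differed in doxycycline (dox): 0.5 µg/mL in the dox group and none in the no dox group. The cells of both groups were MIB1-iKO cells, which carry an integrated construct with Cas9 under a dox-inducible promoter, a guide RNA against MIB1, which encodes a ubiquitin ligase, and a puromycin marker. MIB1-iKO cells were isolated as single-cell clones according to the study's methods, but the labels give neither the clone nor the guide of a sample. No dox-treated cells without a MIB1 guide were among the samples, so loss of MIB1 cannot be told apart from dox itself or from cutting by Cas9. The paper calls the 2 samples of a group biological replicates, and the labels do not say whether they were separate cultures, so p-values measure the spread between these samples.

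Epithelial cells are bound to one another by E-cadherin at adherens junctions, sealed by claudins and occludin at tight junctions, and anchored through desmosomes to keratin filaments. In EMT the transcription factors of the ZEB, SNAI and TWIST families turn these genes off, vimentin and N-cadherin come on, and the cells lay down fibronectin and collagen and bind them through integrins. Many carcinoma lines stop between the ends of this range, with keratins and vimentin in the same cells, and lung cancer lines are known to spread along it.

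ZEB1 and the SNAI factors bind the E-box whose letters are CACCTG, which reads CAGGTG on the other strand, so the promoter stretches around that E-box are shown for the identity genes. RefSeq windows (GRCh38.p14, 250 bases before a start to 50 after it) were found for 10 of the 22 epithelial and 18 of the 24 mesenchymal genes. On either strand, at least 1 window held the E-box in 7 of the 10 epithelial genes (70.0%), in 3 of the 18 mesenchymal genes (16.7%) and in 6571 of the 27305 genes with a window (24.1%). Counted by window, it was found in 8 of 16 epithelial, 5 of 31 mesenchymal and 7231 of 35116 windows in all (20.6%). The 3 epithelial genes with a window and no match were CLDN1, CLDN4 and KRT8. No window was found for the other epithelial genes, CDH1, EPCAM, KRT7 and KRT18 among them. The shares say nothing about the promoters of those genes. The stretches below are 30 bases each, written 5′ to 3′ on the strand of the gene, with the E-box in capitals on whichever strand it was read. First come the 7 epithelial genes, each from 1 of its windows.
CLDN3: cccacaaagccacaggCAGGTGcaggcgca
CLDN7: tatactCAGGTGcgcccCACCTGtccgccc
OCLN: ccatccgagtttCAGGTGaattggtcaccg
TJP1: gcggccggcgcgCAGGTGgcccggcctcgc
DSP: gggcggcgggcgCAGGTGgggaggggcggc
JUP: tggcccCACCTGccgagCAGGTGagcgcac
ELF3: gaatatgcaaatCACCTGgggccaggagcc

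In the same order these stretches lie at chr7:73770221-73770250 (minus strand), chr17:7262475-7262504 (minus), chr5:69492502-69492531 (plus), chr15:29969120-29969149 (minus), chr6:7541481-7541510 (plus), chr17:41786007-41786036 (minus) and chr1:202010455-202010484 (plus). The window of CLDN7 held 5 matches in all, and the windows of DSP and JUP held 2 each. The 3 mesenchymal genes with the E-box follow.
ZEB1: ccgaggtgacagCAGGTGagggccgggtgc
AXL: cccctgattgtcCAGGTGgcccctgggctc
LOX: gaagcacccgtgCACCTGgtccccagctat

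They lie at chr10:31318348-31318377 (plus strand), chr19:41219105-41219134 (plus) and chr5:122077303-122077332 (minus). A match of these letters is a description of the sequence and was not tested as a binding site.

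The libraries held 15943025 to 24398411 counted reads, with both dox libraries below both no dox libraries, so depth moves with the group. The targeted gene MIB1 had 598 and 588 reads without dox and 90 and 59 reads with dox, which is −2.58 ± 0.23 as a log2 fold change (SE, n = 2 per group; adjusted p = 0.000375 by limma). Of 16181 genes tested, 6 were called (0.0371%), where a call needs both a 2-fold change and an adjusted p of 0.05 or less. The lung adenocarcinoma and alveolar markers had few or no reads: NKX2-1, SFTPB, SFTA2 and SFTA3 were at 0 reads in all libraries, and the 6 markers of that list summed to 8 to 13 reads per library. The airway markers summed to 109 to 153 reads, nearly all from FOXJ1, and the neuroendocrine markers to 35 to 63 reads, most from SYP. The leukocyte markers summed to 0 to 5 reads, with PTPRC at 0, and the endothelial markers to 6 to 19 reads, with KDR at 0. The fibroblast markers summed to 446 to 704 reads, nearly all from THY1 and LUM, with FAP at 0. EIF4A1 and POLR2F, genes that every cell uses, were also listed at 0 and EEF1A1, also used by every cell, was at 8.14 RPKM, so a gene at 0 is described here only as listed at 0.

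By level, genes of both lists were expressed in the same libraries, and on each side others were low or listed at 0. In bulk RNA, fewer cells of a kind and less RNA per cell cannot be told apart, and neither can 1 mixed state from a mixture of cells. Levels are given as the RPKM the authors deposited, that is, reads per kilobase of gene model scaled for depth. The gene models behind each value are uncertain, and some genes share sequence with other places in the genome. Ranks and comparisons of level between genes are therefore approximate. Over all 4 libraries, 14 of the 22 epithelial and 15 of the 24 mesenchymal genes had a mean of at least 1 RPKM, and 4 epithelial and 8 mesenchymal genes had at least 10 RPKM. Of the 16181 genes tested, 12628 had at least 1 RPKM and 5358 at least 10 RPKM. Within these lists the mesenchymal genes reached higher. SPARC at a mean of 226 RPKM and ITGB1 at 132 RPKM stood above all 22 epithelial genes. Of those, KRT18 was the highest at 45.0 RPKM. In the further lists described below, the epithelial AP1M2 was at 257 RPKM and the mesenchymal LGALS1 at 1906 RPKM. The medians over the whole lists were 3.22 RPKM for the epithelial and 2.64 RPKM for the mesenchymal genes, both below the 4.18 RPKM of all genes tested. Ranked among the 28798 genes with a mean RPKM above 0, SPARC stood at 416, KRT18 at 1967, VIM at 2193, EPCAM at 5316, ZEB1 at 6710 and CDH1 at 8873.

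**Figure D1:**
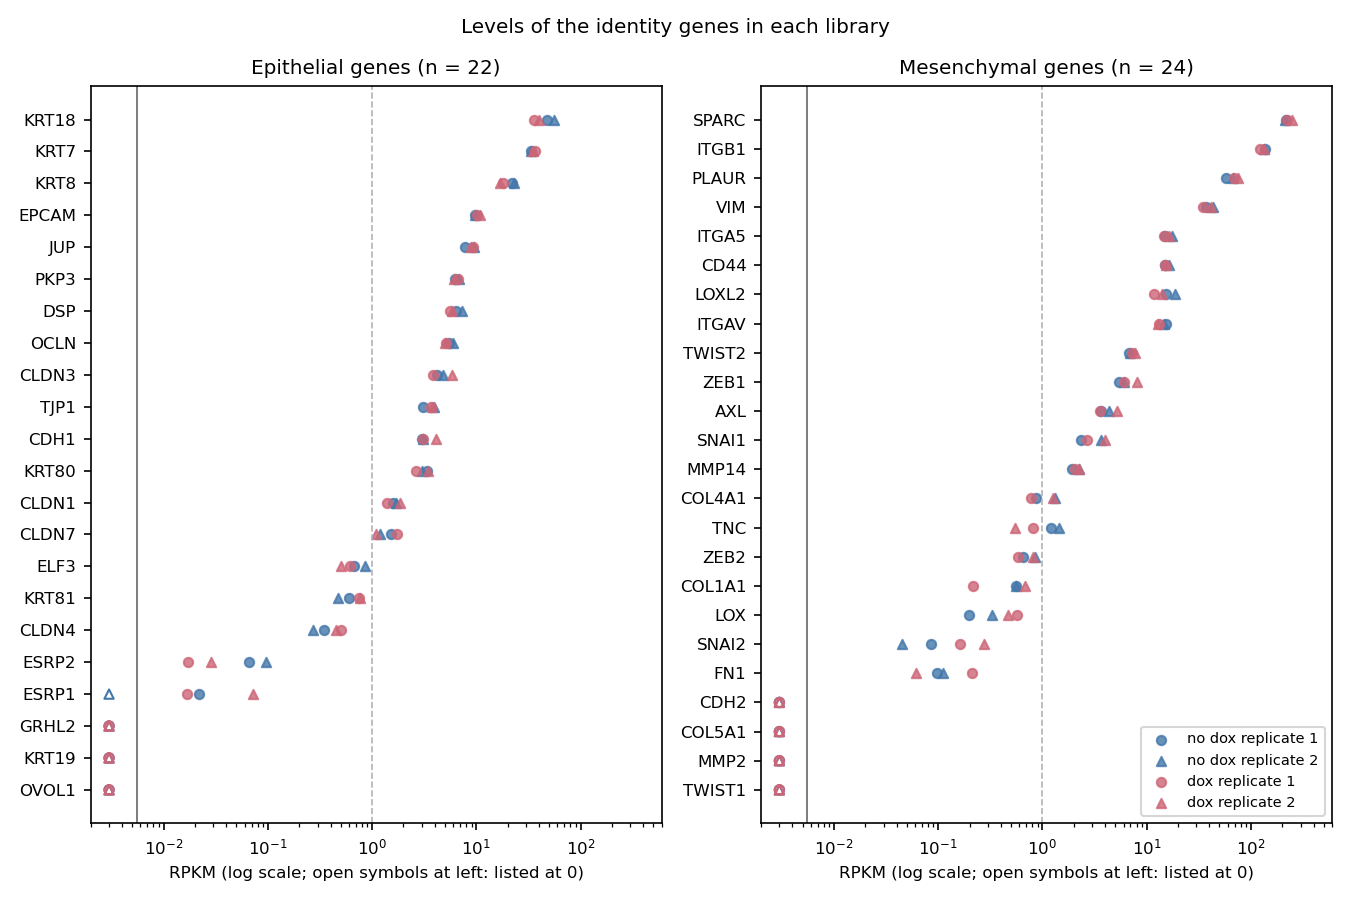
RPKM (log scale) of each of the 22 epithelial and 24 mesenchymal genes in each library, blue for no dox and red for dox, circles for replicate 1 and triangles for replicate 2, with genes ordered by their mean, a dashed line at 1 RPKM, and open symbols left of the solid line for values of 0. The 4 symbols of most genes lie close together, both lists span from 0 to over 40 RPKM, and SPARC and ITGB1 lie farthest right.

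Each list held both expressed genes and genes listed at 0. Reads were absent from all 4 libraries for 3 epithelial genes (KRT19, GRHL2 and OVOL1) and for 4 mesenchymal genes (CDH2, TWIST1, COL5A1 and MMP2). A count of 0 allows up to 3 reads, here 0.123 to 0.188 CPM (counts scaled to a common library total) depending on the library, and this limit covers counting error only. Pairs of related genes were split: CDH1 (E-cadherin) was at a mean of 3.31 RPKM and CDH2 (N-cadherin) at 0, TWIST2 was at 7.18 RPKM and TWIST1 at 0, and SNAI1 was at 3.16 RPKM and SNAI2 at 0.142 RPKM. KRT19, a keratin of simple epithelia, was at 0 although KRT7, KRT8 and KRT18 were the 3 highest keratins of the list. Of the 50-base windows of its main transcript, 1.8% occur elsewhere in the genome, and no other listed gene overlaps its exons. Among the other genes at 0, listed genes overlap 27.3% of the exonic bases of OVOL1 and 7.1% of those of TWIST1. For MMP2, CDH2 and GRHL2 the overlap is 3.7%, 3.6% and 0.8%, and COL5A1 has none. Whether counting explains any of these values of 0 was not tested.

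Between dox and no dox, no identity gene was called on either side. Of the 36 tested (17 epithelial and 19 mesenchymal), 18 had a positive and 18 a negative log2 fold change, and 23 were within 0.2 of 0. The median log2 fold change was 0.0011 over the epithelial and −0.0097 over the mesenchymal genes, against −0.00042 over all genes tested. In edgeR and DESeq2 the count called was also 0. At an unadjusted p under 0.05, 2 of 17 epithelial genes were lower with dox (KRT8 and KRT18) and none higher. On the mesenchymal side 2 of 19 were lower (TNC and LOXL2) and 2 higher (LOX and ZEB1). Over all genes, 4.59% were lower and 4.68% higher at that threshold. The 95% confidence interval (CI) of the log2 fold change lay within a 2-fold change either way for 14 epithelial and 15 mesenchymal genes. It reached 2-fold for CLDN4, KRT81 and ELF3 and for FN1, COL1A1, TNC and LOX, all at a mean of at most 1.01 RPKM. The groups did not overlap in RPKM for 10 of 17 epithelial and 9 of 19 mesenchymal genes, against 38.6% of all genes tested, and a single value compared 2 against 2 in an exact permutation test cannot reach a two-sided p below 0.333.

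**Figure D2:**
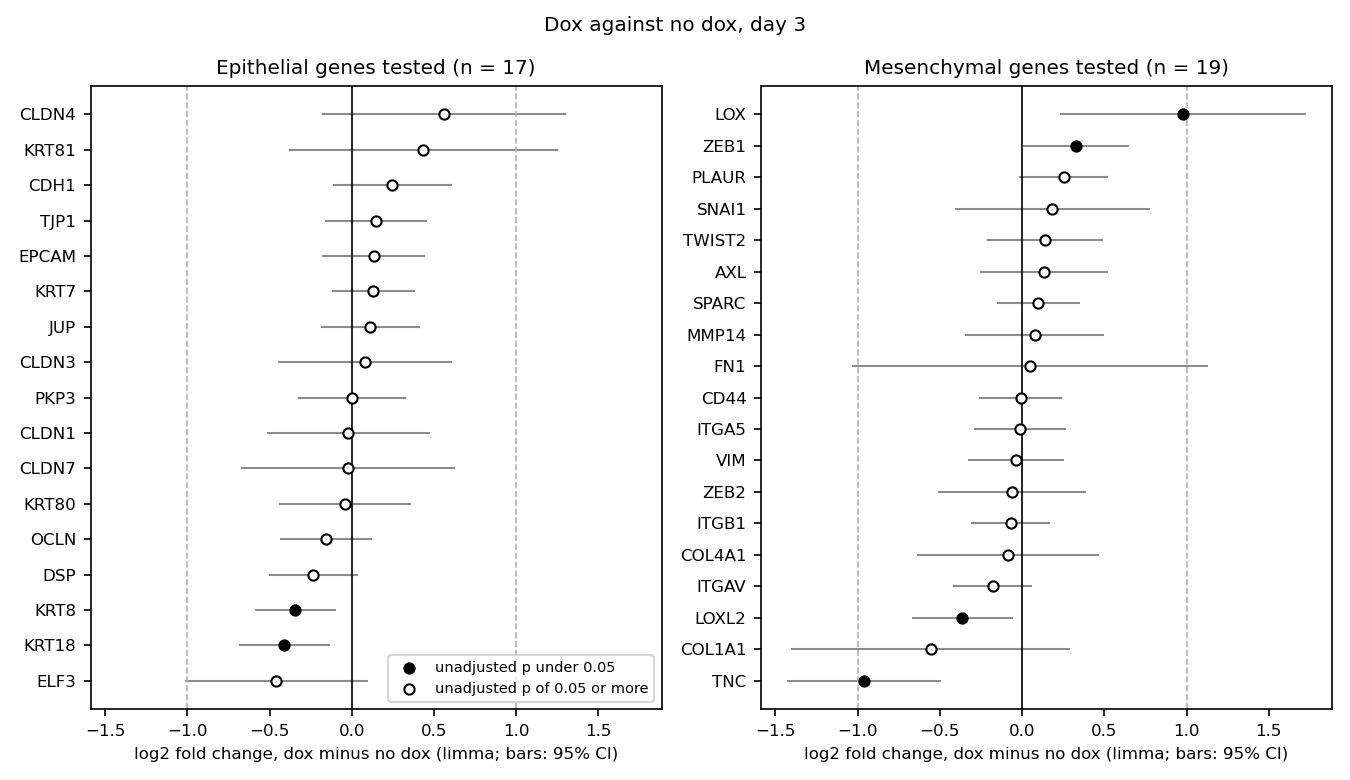
Log2 fold change of each tested gene (dox minus no dox, limma) with its 95% CI, for 17 epithelial and 19 mesenchymal genes, with filled points for an unadjusted p under 0.05 and dashed lines at a 2-fold change either way. No point lies beyond a dashed line, and filled points lie on both sides of 0 among the mesenchymal genes and below 0 among the epithelial genes.

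Both adhesion molecules were expressed, and in each every dox value was above every no dox value. CDH1, the E-cadherin of adherens junctions, measured 3.01 and 3.07 RPKM without dox and 3.09 and 4.07 RPKM with dox. Only dox replicate 2 stood clear of the rest. Its log2 fold change was 0.25 ± 0.17 (SE; 95% CI −0.12 to 0.61; adjusted p = 0.705 by limma), and without dox replicate 2 it was 0.047. EPCAM, an epithelial adhesion molecule and a carcinoma marker, measured 9.70 and 9.75 RPKM without dox and 10.2 and 10.9 RPKM with dox. It did not overlap either, at a log2 fold change of 0.13 ± 0.15 (adjusted p = 0.829 by limma).

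Tight junction genes were all detected and none differed at an unadjusted p under 0.05. Their mean levels ran from 0.391 RPKM for CLDN4, through 1.38 RPKM for CLDN7, 1.63 RPKM for CLDN1, 3.60 RPKM for TJP1 (the scaffold ZO-1) and 4.67 RPKM for CLDN3, to 5.38 RPKM for OCLN (occludin). CLDN3 and CLDN4 lie 29.3 kb apart on chromosome 7, yet CLDN3 was the higher in every library. CLDN4 averaged 0.309 ± 0.051 RPKM without and 0.474 ± 0.038 RPKM with dox (SD, n = 2) from 25 to 34 reads per library, a log2 fold change of 0.56 (95% CI −0.18 to 1.31). The other 5 log2 fold changes lay between −0.16 (OCLN) and 0.15 (TJP1), and that of TJP1 was −0.026 without no dox replicate 1. The OCLN level is uncertain, because 65.1% of the 50-base windows of its transcript also occur elsewhere in the genome.

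Desmosome genes were moderately expressed. PKP3 (plakophilin 3) averaged 6.51 ± 0.45 RPKM without and 6.38 ± 0.33 RPKM with dox, and JUP (plakoglobin, shared with adherens junctions) 8.61 ± 1.16 and 9.08 ± 0.32 RPKM. DSP, the desmoplakin that ties desmosomes to keratin, averaged 6.88 ± 0.60 RPKM without and 5.68 ± 0.21 RPKM with dox. Only DSP was without overlap between the groups, with both dox libraries the lower, at a log2 fold change of −0.23 ± 0.13 (adjusted p = 0.607 by limma).

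The keratins gave the lowest p-values among the epithelial genes. KRT18, a type I keratin of simple epithelia, measured 48.1 and 55.7 RPKM without dox and 35.9 and 40.3 RPKM with dox. Its type II partner KRT8 measured 22.1 and 23.02 RPKM without dox and 17.9 and 17.0 RPKM with dox. In both genes each dox library was below each no dox library. The log2 fold change was −0.41 ± 0.13 for KRT18 (95% CI −0.69 to −0.13; unadjusted p = 0.0067; adjusted p = 0.339 by limma) and −0.34 ± 0.11 for KRT8 (95% CI −0.59 to −0.098; unadjusted p = 0.0096; adjusted p = 0.362 by limma), so neither passed the test. KRT7, another type II keratin of simple epithelia, went the other way, with 33.3 and 33.4 RPKM without dox and 36.3 and 34.9 RPKM with dox. Its log2 fold change was 0.13 ± 0.12 (adjusted p = 0.781 by limma), and the dox libraries were again clear of the no dox ones. The ratio of KRT18 to KRT7 within a library was 1.44 and 1.67 without dox and 0.989 and 1.15 with dox. Summed RPKM of the type II keratins KRT7, KRT8, KRT80, KRT81 and KRT86 were 62.3 and 62.7 without dox and 60.2 and 58.9 with dox. The type I keratins KRT17 and KRT18 together gave 68.5 and 75.5 RPKM without dox and 48.9 and 54.2 RPKM with dox. KRT17 and KRT18 were each lower with dox, so this sum restates their values and is no separate result. The same holds for the ratio of KRT18 to KRT7. The other two detected keratins, KRT80 (3.13 RPKM) and KRT81 (0.647 RPKM), had log2 fold changes of −0.04 and 0.44, and that of KRT80 became 0.14 or 0.080 when dox replicate 1 or no dox replicate 1 was left out.

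Counts of KRT8 and KRT18 carry an uncertainty of their own. On chromosome 12 both genes overlap over 1.1 kb, 47.1% of the 50-base windows of the KRT8 transcript and 39.1% of those of KRT18 occur elsewhere, and the table lists 51 genes named as KRT8 pseudogenes and 67 named as KRT18 pseudogenes. Those pseudogenes together held 108 to 297 reads per library for KRT8 and 121 to 280 for KRT18, against 1248 to 2377 and 1100 to 2448 reads in the genes themselves. The part of shared reads in the difference was not tested. KRT7 lies 645 kb from KRT8 and has no named pseudogene in the table.

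Of the 5 epithelial transcription and splicing factors, 4 were at or near 0 and ELF3 was low. GRHL2 and OVOL1, which hold the epithelial state and repress ZEB1, had no reads, and the epithelial splicing regulators ESRP1 and ESRP2 had 0 to 5 and 1 to 8 reads per library, too few to be tested. ELF3, an epithelial factor of the ETS family, averaged 0.764 ± 0.134 RPKM without and 0.558 ± 0.082 RPKM with dox, with a log2 fold change of −0.46 ± 0.26 (adjusted p = 0.627 by limma).

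Among the EMT transcription factors, TWIST2, ZEB1 and SNAI1 were the ones above 1 RPKM. ZEB1, a repressor of CDH1, measured 5.40 and 6.03 RPKM without dox and 6.08 and 8.08 RPKM with dox. The dox libraries were higher, but dox replicate 1 exceeded no dox replicate 2 by less than the no dox libraries differed from each other. Its log2 fold change was 0.33 ± 0.15 (95% CI 0.0059 to 0.65; unadjusted p = 0.046; adjusted p = 0.528 by limma), and without dox replicate 2 it was 0.11. The ratio of ZEB1 to CDH1 within a library was 1.79 and 1.97 without dox and 1.97 and 1.99 with dox, so ZEB1 and CDH1 were higher in the same library. TWIST2 measured 6.80 and 6.98 RPKM without dox and 7.20 and 7.73 RPKM with dox (log2 fold change 0.14 ± 0.16, adjusted p = 0.846 by limma).

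SNAI1 (Snail) measured 2.32 and 3.66 RPKM without dox and 2.69 and 3.99 RPKM with dox. Here the replicates differed more than the groups, with replicate 2 the higher in each, and the log2 fold change was 0.18 ± 0.28 (adjusted p = 0.885 by limma). Leaving out no dox replicate 1 turned it to −0.15, and leaving out dox replicate 2 to −0.13. ZEB2 was low, with 0.653 and 0.845 RPKM without dox and 0.589 and 0.810 RPKM with dox, and its log2 fold change of −0.06 turned to 0.17 or 0.094 when dox replicate 1 or no dox replicate 2 was left out. SNAI2 (Slug) had 4 and 2 reads without dox and 5 and 10 reads with dox, and was not tested.

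The 7 epithelial genes shown above with the E-box did not share a direction. Their log2 fold changes were 0.15 for TJP1, 0.11 for JUP, 0.08 for CLDN3, −0.02 for CLDN7, −0.16 for OCLN, −0.23 for DSP and −0.46 for ELF3. That of JUP was −0.022 without no dox replicate 1, and that of CLDN3 became −0.023 and −0.26 when no dox replicate 1 or dox replicate 2 was left out. In the same leave-outs that of CLDN7 turned to 0.14 and 0.29.

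VIM, the mesenchymal intermediate filament, had a mean level of 39.1 RPKM, between those of KRT7 (34.5 RPKM) and KRT18 (45.0 RPKM). It measured 37.0 and 43.3 RPKM without dox and 34.5 and 41.7 RPKM with dox. The groups overlapped, and in each group replicate 2 was the higher. The log2 fold change was −0.04 ± 0.14 (95% CI −0.33 to 0.26; adjusted p = 0.960 by limma), and it became 0.11 or 0.089 when dox replicate 1 or no dox replicate 2 was left out. The ratio of VIM to KRT18 within a library was 0.769 and 0.778 without dox and 0.960 and 1.04 with dox. VIM itself overlapped between the groups and KRT18 did not. Exons of other listed genes, VIM-AS1 among them, overlap 24.6% of the exonic bases of VIM.

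Matrix genes ranged widest. SPARC, a collagen-binding matrix protein, measured 219 and 215 RPKM without dox and 223 and 246 RPKM with dox, a log2 fold change of 0.10 ± 0.12 (adjusted p = 0.849 by limma) that became −0.095 without dox replicate 2. By contrast, fibronectin (FN1), a hallmark matrix protein of EMT, was at 0.0983 and 0.111 RPKM without dox and 0.209 and 0.0607 RPKM with dox. These are 10 to 29 reads per library, the dox libraries lay on either side of the no dox ones, and the 95% CI of its log2 fold change, −1.04 to 1.13, was the widest of the 36. COL1A1 averaged 0.560 ± 0.004 RPKM without and 0.448 ± 0.330 RPKM with dox, where dox replicate 1 was the lowest and dox replicate 2 the highest, and its log2 fold change of −0.56 became 0.29 when dox replicate 1 was left out. COL4A1, a basement membrane collagen, averaged 1.09 ± 0.31 RPKM without and 1.02 ± 0.33 RPKM with dox.

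TNC, the matrix glycoprotein tenascin C, had the lowest p of all 36 genes. It measured 1.22 and 1.44 RPKM without dox and 0.815 and 0.550 RPKM with dox, from 259, 285, 112 and 90 reads. Both dox libraries were below both no dox libraries. The log2 fold change was −0.96 ± 0.22 (95% CI −1.43 to −0.49; unadjusted p = 0.00058), which did not pass the adjusted threshold (adjusted p = 0.167 by limma).

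The integrin chains and CD44 were at over 10 RPKM and had log2 fold changes within 0.2 of 0. ITGB1, the beta chain of many matrix-binding integrins, measured 136 and 135 RPKM without dox and 123 and 133 RPKM with dox. Of its alpha partners, ITGA5, the fibronectin receptor chain, measured 14.9 and 17.5 RPKM without dox and 14.8 and 16.4 RPKM with dox, and ITGAV measured 15.4 and 14.7 RPKM without dox and 13.1 and 12.8 RPKM with dox. The hyaluronan receptor CD44 measured 15.1 and 16.3 RPKM without dox and 14.9 and 15.4 RPKM with dox. ITGB1 and ITGAV were without overlap, both lower with dox, and ITGA5 and CD44 overlapped. The log2 fold changes were −0.07 for ITGB1, −0.02 for ITGA5, −0.18 for ITGAV and −0.01 for CD44, with SEs of 0.11 to 0.13 and adjusted p (limma) of 0.664 or more. That of ITGB1 became 0.087 without dox replicate 1, that of ITGA5 0.072 without dox replicate 1 and 0.12 without no dox replicate 2, and that of CD44 0.033 and 0.065 without the same libraries. The receptor tyrosine kinase AXL averaged 4.0 ± 0.49 RPKM without and 4.36 ± 1.14 RPKM with dox. In ITGB1, 42.4% of the 50-base windows occur elsewhere in the genome, and its pseudogene held 681 to 1106 reads per library.

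Of the matrix enzymes among the identity genes, LOX and LOXL2 are lysyl oxidases, a family that cross-links collagen and elastin. These members of the family were without overlap between the groups, in opposite directions. LOX measured 0.197 and 0.326 RPKM without dox and 0.570 and 0.469 RPKM with dox, from 24, 37, 45 and 44 reads. LOXL2 measured 15.4 and 18.8 RPKM without dox and 11.8 and 14.2 RPKM with dox. For LOX the dox libraries were the higher, and for LOXL2 the lower. The log2 fold change was 0.98 ± 0.35 for LOX (95% CI 0.23 to 1.73; unadjusted p = 0.014; adjusted p = 0.394 by limma) and −0.36 ± 0.14 for LOXL2 (95% CI −0.67 to −0.057; unadjusted p = 0.023; adjusted p = 0.452 by limma). Leaving out single libraries gave 0.61 to 1.30 for LOX and −0.51 to −0.22 for LOXL2. PLAUR, the urokinase receptor, measured 57.4 and 66.7 RPKM without dox and 69.2 and 75.9 RPKM with dox. Both dox libraries were higher, at a log2 fold change of 0.25 ± 0.13 (adjusted p = 0.574 by limma). The membrane protease MMP14 averaged 2.08 ± 0.20 RPKM without and 2.15 ± 0.11 RPKM with dox.

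**Figure D3:**
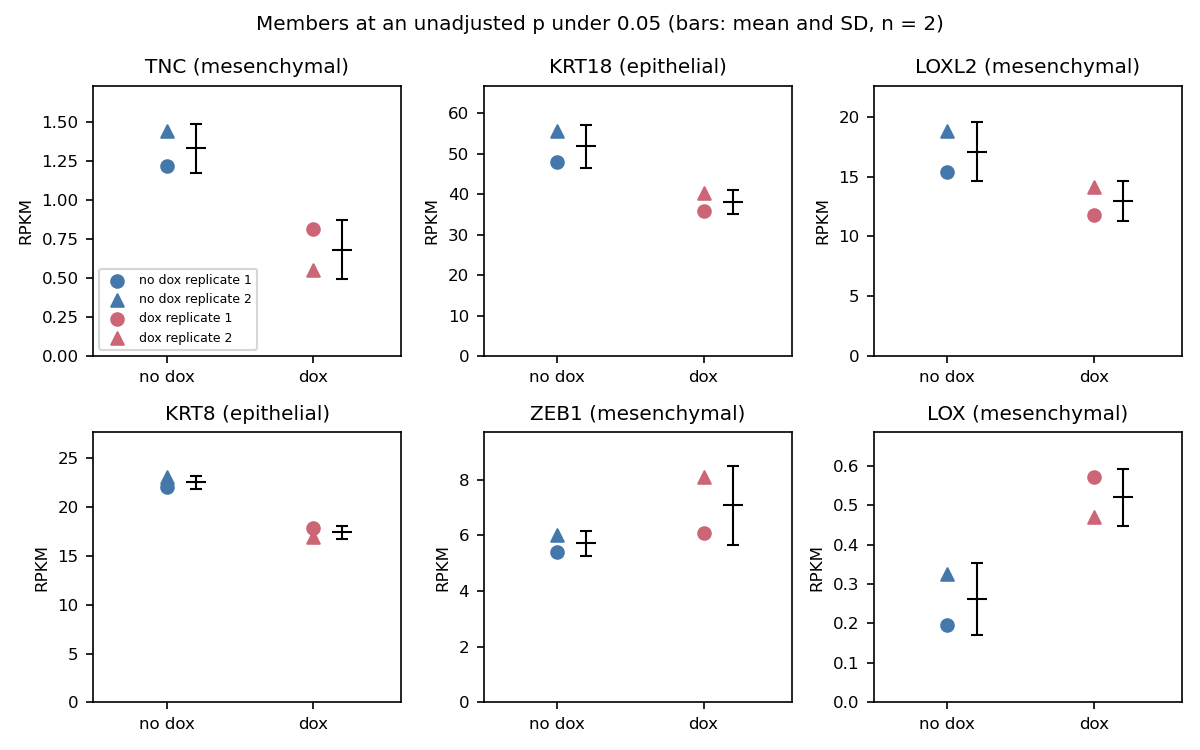
RPKM in each library (axes start at 0) of the 6 identity genes at an unadjusted p under 0.05, blue for no dox and red for dox, circles for replicate 1 and triangles for replicate 2, with the mean and SD of each group (n = 2). TNC, KRT18, LOXL2 and KRT8 are lower and ZEB1 and LOX higher with dox, and for ZEB1 the lower dox library lies just above the higher no dox library.

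Within both groups the medians of both lists were higher in the library numbered 2. The median deviation of the 19 tested mesenchymal genes from their own means (log2 CPM after quantile normalization) was −0.12 and 0.08 in no dox replicates 1 and 2, and −0.15 and 0.13 in dox replicates 1 and 2. For the 17 epithelial genes it was −0.064 and 0.063 without dox and −0.066 and 0.055 with dox. Replicate 2 was the higher in both groups for 13 of the 19 mesenchymal genes and the lower in both for none. For the epithelial genes these counts were 5 and 2 of 17, and over all 16181 genes 5115 were higher in both and 5114 lower in both. The spread of the mesenchymal genes between replicates was wider than the difference between the groups' medians.

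**Figure D4:**
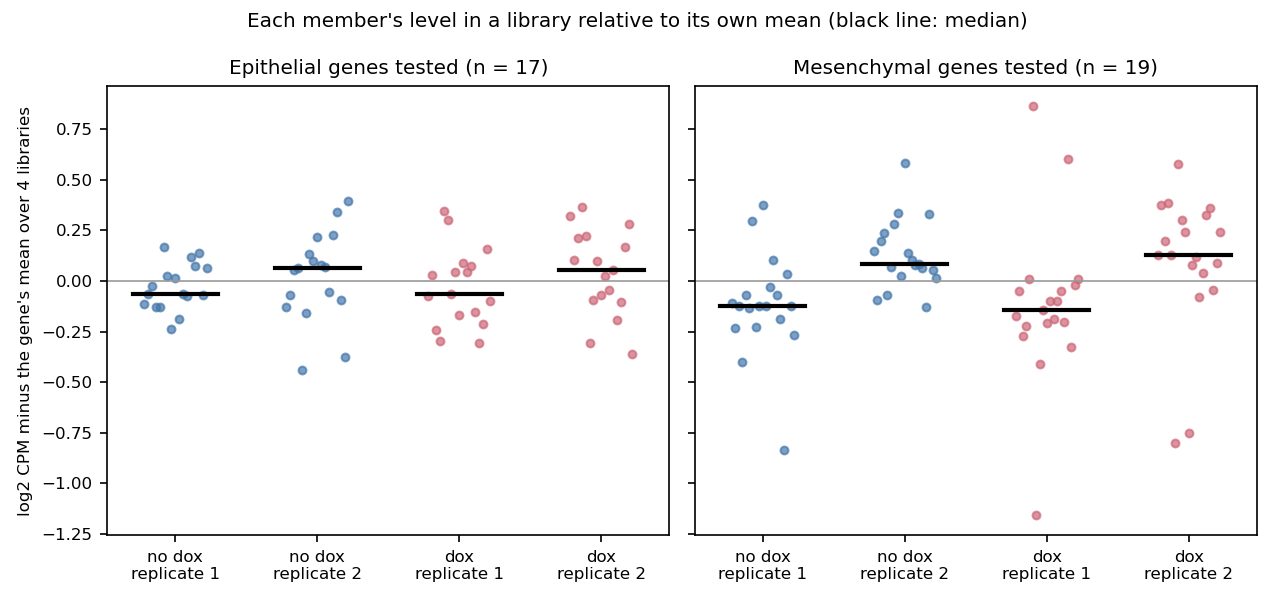
Log2 CPM of each tested gene minus its own mean over the 4 libraries, for 17 epithelial and 19 mesenchymal genes in each library, with the median of a list as a black line. The medians are −0.064, 0.063, −0.066 and 0.055 for the epithelial and −0.12, 0.08, −0.15 and 0.13 for the mesenchymal genes from left to right, below 0 in replicate 1 and above 0 in replicate 2 of both groups.

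Further junction, keratin and epithelial factor genes, 66 in a list set up by name beside the 22, gave a like picture. Of the 38 tested, 0 were called by limma, 4 were lower and 1 higher with dox at an unadjusted p under 0.05, and the median log2 fold change was −0.05. Over all genes tested, 4.59% were lower and 4.68% higher at that threshold. The groups did not overlap in RPKM for 14 of the 38 genes (36.8%), against 38.6% of all genes tested. KRT17, a type I keratin of basal and stressed epithelia, measured 20.4 and 19.8 RPKM without dox and 13.0 and 13.9 RPKM with dox, a log2 fold change of −0.55 ± 0.14 (adjusted p = 0.228 by limma). DSG2, the desmosomal cadherin, measured 25.0 and 25.3 RPKM without dox and 17.6 and 20.6 RPKM with dox, a log2 fold change of −0.38 ± 0.12 (adjusted p = 0.350 by limma). In both genes every dox value was below every no dox value, and leaving out single libraries gave −0.53 to −0.23 for DSG2.

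EPB41L5, a polarity and membrane-cytoskeleton protein, measured 4.19 and 4.23 RPKM without dox and 3.40 and 2.88 RPKM with dox (log2 fold change −0.41 ± 0.14, adjusted p = 0.370 by limma). KLF5, an epithelial transcription factor, measured 16.04 and 17.96 RPKM without dox and 12.1 and 14.7 RPKM with dox (−0.31 ± 0.13, adjusted p = 0.509 in limma, and −0.46 to −0.16 when single libraries were left out). The 3 genes of this list with the highest mean levels were AP1M2, a sorting adaptor of epithelial cells, at 257 RPKM, the junction protein beta-catenin (CTNNB1) at 78.3 RPKM and the desmosome-associated PERP at 74.2 RPKM, with log2 fold changes of −0.14, −0.13 and 0.10, the last ranging from −0.033 to 0.23 when single libraries were left out.

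Of 75 further mesenchymal genes, 50 were tested, 0 were called by limma, 7 were higher and 2 lower with dox at an unadjusted p under 0.05, and the median log2 fold change was 0.01. The shares over all genes tested were 4.68% higher and 4.59% lower. The groups did not overlap in RPKM for 26 of the 50 genes (52%), against 38.6% of all genes tested. CCN2, a matricellular protein, measured 16.6 and 19.7 RPKM without dox and 26.1 and 34.7 RPKM with dox, a log2 fold change of 0.76 ± 0.15 (adjusted p = 0.146 by limma). Its relative CCN1 measured 442.3 and 442.1 RPKM without dox and 553 and 695 RPKM with dox, a log2 fold change of 0.53 ± 0.15 (adjusted p = 0.284 by limma). Both dox libraries were above both no dox libraries for each. When single libraries were left out, the log2 fold change of CCN1 ranged from 0.22 to 0.82.

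The collagen-binding integrin chain ITGA2 (log2 fold change 1.69, from 9 to 45 reads per library, and 0.96 to 2.44 when single libraries were left out) and the endocytic receptor LRP1 (0.64) were also without overlap and higher with dox, and the metalloprotease ADAM12 (−0.43) was without overlap and lower, all at adjusted p (limma) of 0.257 or more. The highest level in this list was that of LGALS1 (galectin 1), at 1906 RPKM and a log2 fold change of −0.01, which turned sign when single libraries were left out (range −0.035 to 0.025). S100A4, a calcium-binding protein of motile cells, averaged 490 RPKM with a log2 fold change of −0.27 (adjusted p = 0.574 by limma). The values of S100A4 in the 4 libraries, 591 and 471 RPKM without dox and 548 and 348 RPKM with dox, overlapped.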

How the data were processed

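The study's methods describe 2 library kits, 1 of them for low input and 1 that marks strand. Which of them was used for these libraries, and whether strand was used in counting, is not given in the sources used here. As the authors describe it, ribosomal reads were removed, single-end 50-base reads were aligned to GRCh38 with GSNAP, and the deposited counts are whole, unnormalized reads over the exons of a gene. The methods name a RefSeq annotation while the tables use Ensembl identifiers, so the gene models behind each value are uncertain. How reads that match several places were counted is not stated. The authors also deposited RPKM values, scaled by gene length and by a depth factor per library that differs from the total count (0.932, 0.649 and 0.771 against 0.869, 0.653 and 0.699, relative to no dox replicate 1). RPKM values were used for levels, group means, ratios and sums, for statements on overlap between the groups, and in the alternative fits on log2 RPKM. The main fit and the other alternatives used the counts, so overlap and log2 fold changes rest on different depth scalings.

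Samples were grouped by their labels (2 dox, 2 no dox). Symbols were matched by Ensembl identifier (41836 of 58302 had one), and all 46 genes were found. Genes kept by filterByExpr (16181) were scaled by library size, quantile normalized, weighted with voom and tested with lmFit and eBayes in limma 3.58.1 (R 4.3.3), with Benjamini-Hochberg adjustment over all genes tested. Code was tested on simulated data. Alternatives were edgeR 4.0.16, DESeq2 1.42.0, other scalings and filters, limma on log2 RPKM with pseudocounts of 0.1 and 1, a replicate block, and each library left out. Shared windows were counted over GRCh38 with GENCODE release 44 transcripts.

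The identity genes, the further lists and the rule by which genes are named were chosen with earlier results of these data known. Values per library are given for identity genes with a mean of at least 10 RPKM or an unadjusted p under 0.05, and for CDH1, VIM, FN1 and EMT factors with at least 10 reads in a library. From the further lists, those at an unadjusted p under 0.05 (at most 6 a list) and the 3 highest by RPKM are named. Of these, 2 genes are not reported here.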

Additional observations from a re-analysis of the deposited data

How the results depend on the processing

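No identity gene was called in any alternative run. In the runs without any call over the whole table, MIB1 was not called either. Those runs therefore say little about the identity genes. The count of genes called over the whole table was 0 without the count filter and 0 on log2 RPKM with either pseudocount, 11 with no fold threshold, and 0 in each of the 4 fits that left out 1 library (range 0 to 0). In those 4 fits the median log2 fold change ranged from −0.023 to 0.12 over the epithelial and from −0.14 to 0.17 over the mesenchymal genes, the high end in both when dox replicate 1 was left out. Depth limits the genes under about 1 RPKM most, such as LOX, FN1 and CLDN4.

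Both groups use the numbers 1 and 2, and no label ties a number to a day or culture. Across 16181 genes the deviations of same-numbered libraries from their group means correlated at r = 0.164. A fit with the replicate number as a block called 78 genes in place of 6. In it no identity gene reached the 2-fold threshold as well, and 6 were at an adjusted p of at most 0.05: KRT18 (7.67e-05), TNC (0.000378), KRT8 (0.00122), LOXL2 (0.00336), PLAUR (0.0107) and ZEB1 (0.0193). The share of all genes at that adjusted p was not counted, so the 6 have no background at their own threshold. Over all 16181 genes, 3276 were at an unadjusted p under 0.05 in this limma fit, against 1501 in the main fit. With a block, the 4 libraries leave little to estimate each gene's own variance. The p-values of this fit therefore rest largely on variance shared across genes. Over the alternatives other than leaving out a library, the adjusted p of these 6 genes ranged up to 0.613 for KRT18, TNC and KRT8, 0.686 for LOXL2, 0.925 for PLAUR and 0.868 for ZEB1. The 0.613 came from the fit without the count filter. MIB1 also ranged up to 0.613, so that value says little about these genes. For KRT18, KRT8 and TNC the adjusted p was 0.272, 0.333 and 0.111 in edgeR, and 0.330, 0.430 and 0.0810 in DESeq2. In the block fit the log2 fold changes of CLDN7 and PKP3 were 0.013 and −0.0001023.

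The sign held in every alternative for 17 of the 36 genes tested, among them KRT18, KRT8, TNC, LOX, LOXL2, PLAUR, ZEB1, CDH1 and EPCAM. Changes of sign in the other 19 were of values near 0 or came from leaving out 1 library, and the cause was not tested. The log2 fold change of CLDN1 became 0.0048 in edgeR, 0.0089 in DESeq2 and 0.0049 with library-size scaling. That of CLDN7 became 0.038 in edgeR, 0.050 in DESeq2, 0.0097 with voom and TMM, 0.031 with library-size scaling, 0.011 at a mean count of at least 50, and 0.022 and 0.019 on log2 RPKM with pseudocounts of 0.1 and 1. That of PKP3 became −0.026 in edgeR, −0.020 in DESeq2, −0.023 with voom and TMM, −0.0087 with library-size scaling, and −0.029 and −0.026 on log2 RPKM with the same pseudocounts.

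Leaving out 1 library at a time, the ranges of log2 fold change that crossed 0 were −0.25 to 0.20 for CLDN1, −0.26 to 0.41 for CLDN3, −0.32 to 0.29 for CLDN7, −0.026 to 0.32 for TJP1, −0.022 to 0.25 for JUP, −0.070 to 0.067 for PKP3 and −0.24 to 0.14 for KRT80. On the mesenchymal side they were −0.19 to 0.11 for VIM, −0.30 to 0.17 for ZEB2, −0.15 to 0.49 for SNAI1, −0.75 to 0.90 for FN1, −1.45 to 0.29 for COL1A1, −0.45 to 0.26 for COL4A1, −0.095 to 0.29 for SPARC, −0.15 to 0.12 for ITGA5, −0.22 to 0.087 for ITGB1, −0.087 to 0.065 for CD44, −0.14 to 0.39 for AXL and −0.018 to 0.16 for MMP14. Where a library was left out, the lone library of its group was assumed to vary like the other group. All 4 fits were run with limma.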
